A study of Sus scrofa with 12 samples.

Results

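Of the 32 genes described here, 18 encode enzymes of cholesterol synthesis (the sterol branch). Another 9 encode enzymes that make, desaturate and elongate fatty acids (the fatty acid branch), and 5 are grouped as regulators. These 5 are or act on the sterol regulatory element-binding proteins (SREBP), the transcription factors of both pathways, except STARD4, which carries sterol between membranes. The 32 genes were taken by gene symbol from a table of 31908 genes. Each of the 32 symbols stood there once, and all 32 passed the filter on low values. RNA-seq had been performed on porcine muscle satellite cells, the stem cells of skeletal muscle, which divide and later fuse into multinucleate fibres. The 12 libraries form 4 groups of 3: controls (labelled WT, with table columns headed NC) and an arm labelled CBP, each collected at 0h, the proliferation stage, and at 60h, the differentiation stage. The protocol names SGC-CBP30, an inhibitor of the acetyl-lysine-reading bromodomains in the acetyltransferases CBP and p300, at a dose labelled 5 uM per ml, for 48 h in proliferation and 60 h in differentiation, so the CBP arm is read here as cells given this compound. That text stands on every sample and the groups stand under a genotype tag, so a compound and a genetic change cannot be told apart from the labels. All groups share RPMI medium with fetal bovine serum and a cell line named C3H in the labels. Not given in the sources used here were what the control cells received and how many separate cultures were used, so p-values measure the spread between these libraries, which may be technical.

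As background, cholesterol is built from acetyl-CoA through mevalonate, squalene and lanosterol, while fatty acids are built from malonyl-CoA and then desaturated and elongated. SREBP precursors sit in the endoplasmic reticulum bound to SCAP, which carries them to the Golgi for cleavage when sterols are low, and INSIG1 holds SCAP back when sterols are plentiful. SREBF2 encodes the factor known mainly for sterol genes and SREBF1 the factor known mainly for fatty acid genes. Both pathways supply membrane lipid to dividing and fusing muscle cells.

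Levels are FPKM, read counts scaled to gene length and library size, which allows levels to be compared between genes. Reads on the genes of the table, recovered from the FPKM values, summed to 16093881 to 19153357 per library. Of these, 75 to 17073 reads stood behind a single value of the 32 genes. Control cells carried muscle lineage markers, with MYOG at 343 FPKM at 0h and 589 at 60h. Of the 10 such markers, 4 were higher and 5 lower at 60h than at 0h by the test given below. Of all genes, 28.8% were higher and 38.0% lower there. At 0h these 10 markers summed to a mean of 2063 FPKM in control cells, 10 fibroblast markers to 3040 and 8 smooth muscle markers to 3771. CREBBP and EP300, which encode CBP and p300, were present in every group (lowest group means 8.13 and 14.3 FPKM), and RNA level is no check of a bromodomain inhibitor. Means are given ± SD over n = 3 libraries. In the RefSeq table of Sscrofa11.1, 29 of the 32 genes had a position and 7 of these overlapped another gene (ACAT2, PMVK, SC5D, ACACA, FADS2, ELOVL6 and STARD4), where reads of the partner may be included.

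**Figure D1:**
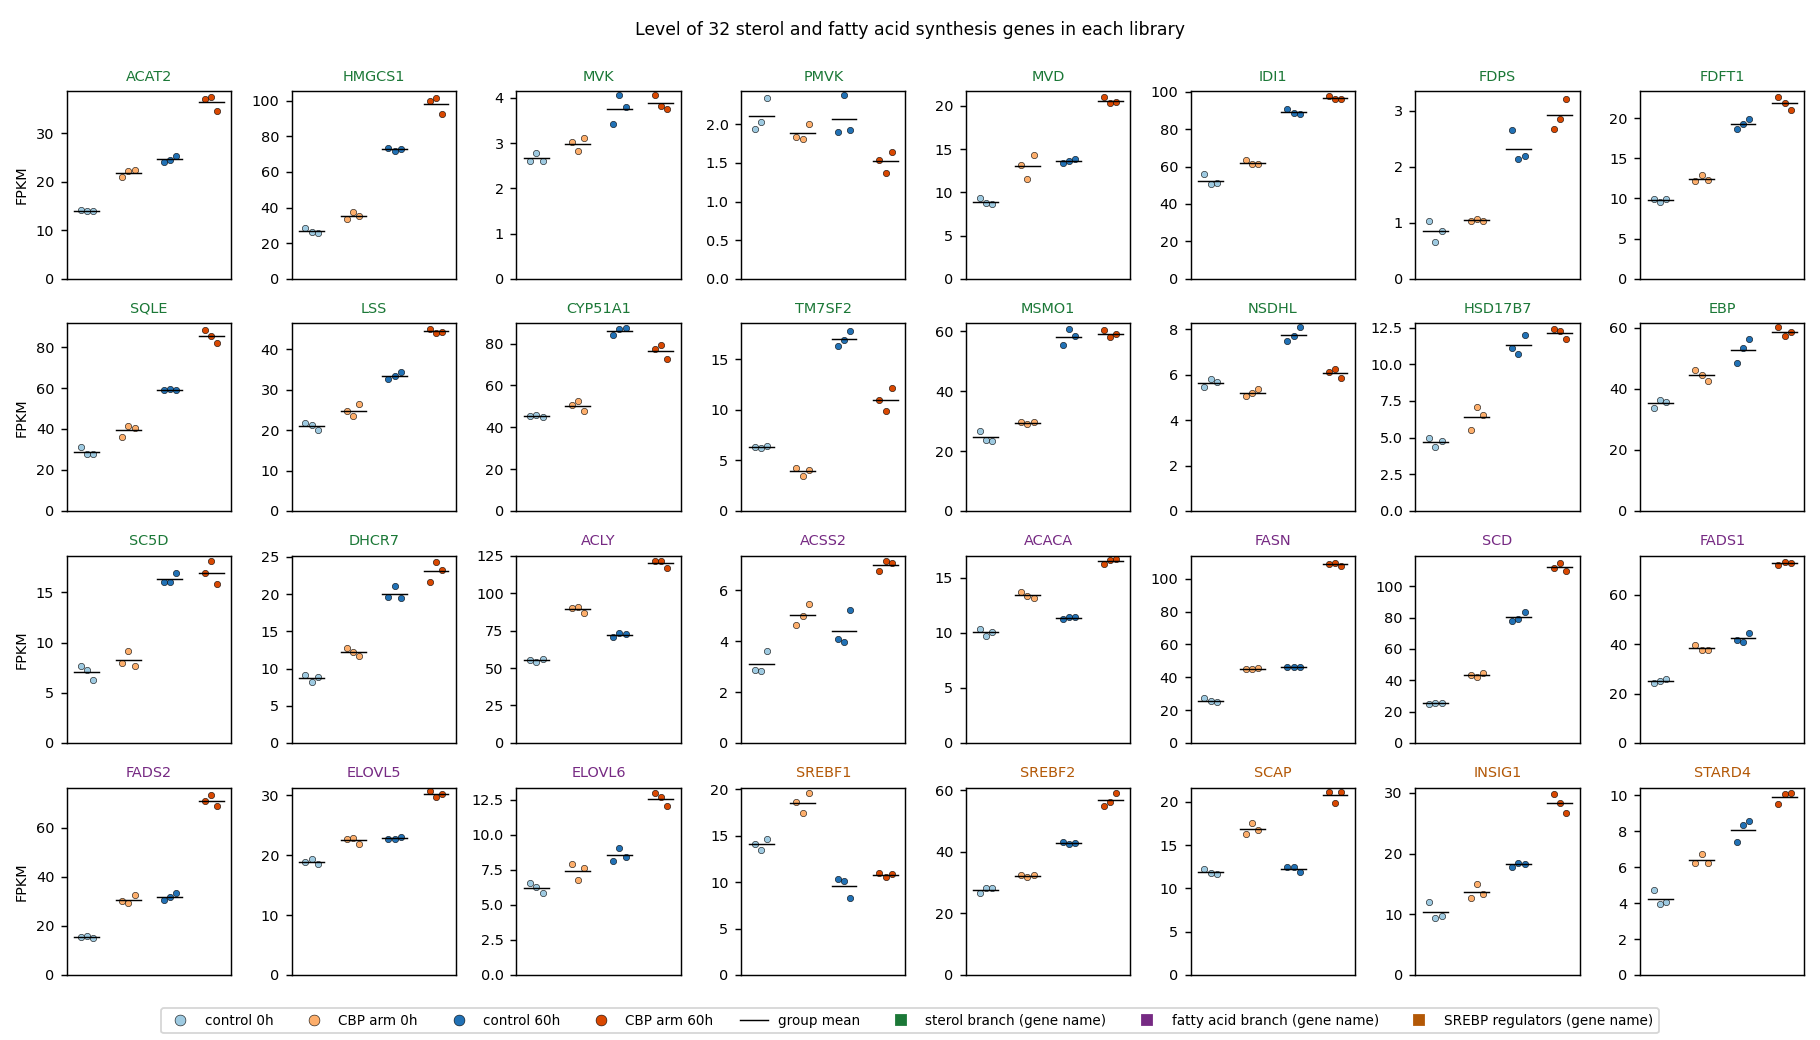
Level of each of the 32 genes in each library (vertical axis, FPKM from 0; 1 point per library, line at the group mean; gene names coloured by branch). In FPKM as deposited, FASN and FADS2 reached about the same level in the CBP arm at 0h (45.3 ± 0.542 and 30.7 ± 1.83) as in control cells at 60h (46.1 ± 0.0722 and 31.99 ± 1.41). Median-of-ratios scaling, explained below, divides the former libraries by 1.07 to 1.10 and the latter by 0.936 to 0.941. It moves these levels apart.

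The arm labelled CBP carried more transcript of the fatty acid branch than control cells at both stages, while the sterol branch was higher at 0h and mixed at 60h. The FPKM of the 9 fatty acid genes summed to 184 to 186 in the control libraries and 293 to 297 in the CBP arm at 0h (ratio of means 1.59), and to 313 to 328 and 541 to 559 at 60h (ratio 1.72). The 18 sterol genes summed to 299 to 316 against 372 to 379 at 0h (ratio 1.23) and to 579 to 598 against 658 to 686 at 60h (ratio 1.14). The 5 SREBP regulators summed to 66.8 to 69.95 against 86.2 to 88.6 at 0h and 89.8 to 91.9 against 125 to 128 at 60h. In none of these 6 comparisons of sums did the libraries of the arms overlap. After median-of-ratios scaling, explained below, the ratio of the sterol sums was 1.12 at 0h and 1.04 at 60h. That of the fatty acid sums was 1.45 and 1.57, and that of the regulator sums 1.17 and 1.27. Divided by the sterol sum of the same library, the fatty acid sum was 0.589 to 0.622 in control cells and 0.772 to 0.799 in the CBP arm at 0h, and 0.538 to 0.549 and 0.805 to 0.823 at 60h, a ratio that does not depend on the scaling of the libraries. These sums are descriptions and were given no test.

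**Figure D2:**
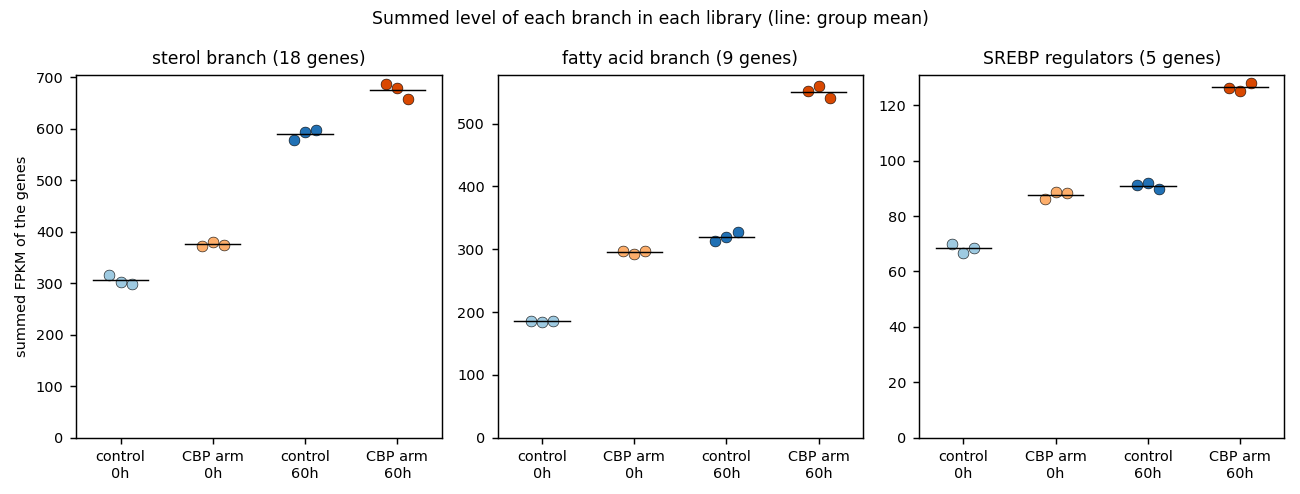
Summed FPKM (vertical axis, from 0) of the 18 sterol, 9 fatty acid and 5 SREBP regulator genes in each library (points), with the group mean (line). The CBP arm lies above the control at each stage in all 3 panels. At 60h the ratio is 1.72 for the fatty acid branch and 1.14 for the sterol branch. After median-of-ratios scaling, not drawn here, these ratios were 1.57 and 1.04.

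At 0h, 27 of the 32 genes were higher in the CBP arm, 1 was lower and 4 did not pass (limma on log2(FPKM + 1), Benjamini-Hochberg adjusted p under 0.05 over 11636 genes). Of all genes tested, 44.2% were called higher and 18.1% lower. All 9 fatty acid genes and all 5 regulators were among the higher ones, with 13 of 18 sterol genes. The median log2 change was 0.59 for the fatty acid branch, 0.38 for the regulators and 0.25 for the sterol branch, against 0.12 over all tested genes. With a log2 change of at least 0.5 also required, which 6.76% of all genes met upward and 7.76% downward, 6 of 9 fatty acid genes, 1 of 18 sterol genes and 1 of 5 regulators were higher, and 1 sterol gene, TM7SF2, was lower. The libraries of the arms did not overlap for 28 genes that were higher and 2 that were lower in the CBP arm, against 47.2% and 19.6% of all genes. The median of all genes depends on scaling. After median-of-ratios scaling, which divides each library by its typical ratio to the others, the median of all genes was 0.004, 25.7% of genes were called higher and 26.6% lower, and the higher share of all calls moved from 71.0% to 49.1%. Of the 32 genes, 23 were then higher and 2 lower, with 8 of 9 fatty acid, 11 of 18 sterol and 4 of 5 regulator genes higher.

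At 60h, 23 of the 32 genes were higher in the CBP arm, 4 were lower and 5 did not pass, where 44.7% of all genes were called higher and 27.0% lower. All 9 fatty acid genes were again higher, with a median log2 change of 0.57, and 4 of 5 regulators were higher (median 0.40). The sterol branch held 10 higher and 4 lower genes of 18 and a median of 0.13, close to the 0.10 over all tested genes. A log2 change of at least 0.5 upward was met by 14.6% of all genes, 7 of 9 fatty acid genes, 2 of 5 regulators and 3 of 18 sterol genes (ACAT2, MVD and SQLE), and downward by 11.7% of all genes and again by TM7SF2. The libraries did not overlap for 24 higher and 4 lower genes of the 32 (46.1% and 28.2% of all genes). After median-of-ratios scaling (33.0% of all genes higher, 36.1% lower, higher share of calls 47.8% in place of 62.4%), 9 of 9 fatty acid genes and 3 of 5 regulators were higher and none lower, but the sterol branch held 5 higher and 5 lower genes with a median of 0.003. No direction is therefore given for the sterol branch as a whole at 60h.

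**Figure D3:**
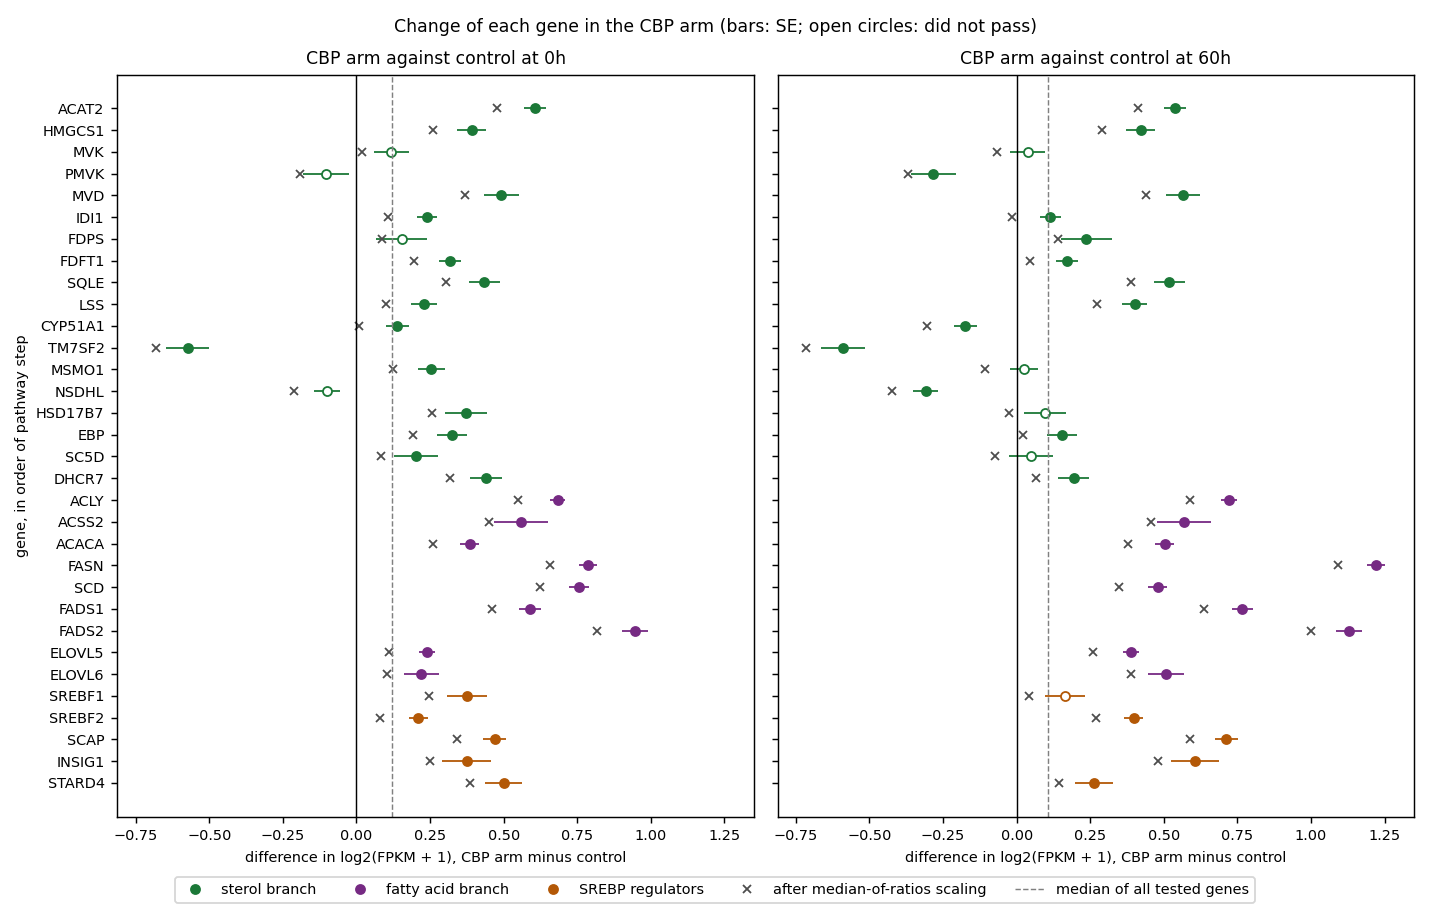
Difference in log2(FPKM + 1) between the CBP arm and control cells (horizontal axis) at 0h (left) and 60h (right) for each gene in pathway order, with SE bars, open circles for genes that did not pass, crosses for the value after median-of-ratios scaling and a dashed line at the median of all tested genes. The 9 fatty acid genes lie to the right of the dashed line at both stages, and TM7SF2 lies at -0.57 and -0.59.

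The fatty acid branch begins with enzymes that supply acetyl-CoA in the cytosol. ACLY, which splits citrate, stood at 55.3, 54.2 and 56.3 FPKM in the control libraries and 90.4, 90.6 and 87.03 in the CBP arm at 0h, and at 70.99, 73.4 and 72.5 and 122, 121 and 116 at 60h. The arms did not overlap at either stage, and ACLY rose 1.62-fold at 0h (log2 change 0.68 with SE 0.027, adjusted p = 1.54e-09) and 1.66-fold at 60h (log2 change 0.72 with SE 0.027, adjusted p = 3.83e-10). ACSS2, which makes acetyl-CoA from acetate, rose 1.62-fold and 1.58-fold from lower levels (3.11 ± 0.431 and 4.42 ± 0.691 FPKM in control cells). ACACA, the carboxylase that makes malonyl-CoA, rose 1.34-fold at 0h, from 10.1 ± 0.346 to 13.4 ± 0.287 FPKM, and 1.45-fold at 60h, from 11.4 ± 0.110 to 16.5 ± 0.243.

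FASN, the fatty acid synthase, had the largest change of the 32 genes at 60h. Its FPKM was 27.2, 25.4 and 24.9 in control cells and 44.9, 45.1 and 45.9 in the CBP arm at 0h, and 46.1, 46.2 and 46.1 and 109, 109.9 and 108 at 60h. The replicates of each group lay close together and the arms did not overlap, with a 1.75-fold rise at 0h (log2 change 0.79 with SE 0.031, adjusted p = 1.16e-09) and a 2.36-fold rise at 60h (log2 change 1.22 with SE 0.031, adjusted p = 1.35e-11). These log2 changes lay above those of 98.6% and 98.7% of all tested genes. After median-of-ratios scaling they were 0.66 and 1.09.

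The desaturases rose beside FASN. SCD, which places the first double bond in stearate and palmitate, was at 25.2, 25.4 and 25.4 FPKM in control cells and 43.2, 42.2 and 44.9 in the CBP arm at 0h, and at 77.7, 79.3 and 83.6 and 112, 115 and 109.6 at 60h. It rose 1.72-fold at 0h (log2 change 0.76, SE 0.033) and 1.4-fold at 60h (0.48, SE 0.033), with no overlap between the arms. FADS2, the delta-6 desaturase of polyunsaturated fatty acids, was at 15.3, 15.8 and 15.3 against 30.1, 29.3 and 32.8 FPKM at 0h and 30.6, 31.98 and 33.4 against 70.9, 73.5 and 68.9 at 60h. Its rise of 1.99-fold at 0h (log2 change 0.94 with SE 0.044, adjusted p = 5.89e-09) was the largest of the 32 genes there, and at 60h it rose 2.22-fold (log2 change 1.13 with SE 0.044, adjusted p = 5.21e-10). FADS1, the delta-5 desaturase, was at 24.2, 25.2 and 25.99 against 39.7, 37.5 and 37.7 FPKM at 0h and 41.7, 40.9 and 44.4 against 71.9, 73.3 and 72.7 at 60h, a rise of 1.52-fold and 1.72-fold. FADS1 and FADS2 are neighbours on chromosome 2 (9735425 to 9747405 and 9633941 to 9666666 in Sscrofa11.1), and the ratio of FADS2 to FADS1 FPKM was 0.588 to 0.633 in control and 0.757 to 0.869 in CBP arm libraries at 0h, and 0.733 to 0.783 and 0.948 to 1 at 60h. The 2 elongases had lower fold values at 0h than the desaturases. ELOVL5, which extends polyunsaturated chains, rose 1.19-fold at 0h and 1.32-fold at 60h. ELOVL6, which extends palmitate, was at 6.56, 6.30 and 5.85 against 7.92, 6.77 and 7.60 FPKM at 0h and 8.16, 9.09 and 8.40 against 13.01, 12.7 and 12.03 at 60h. Its rise was 1.19-fold at 0h (log2 change 0.22, lost after median-of-ratios scaling at 0.10, limma adjusted p = 0.16) and 1.47-fold at 60h.

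In the sterol branch, enzymes of the steps up to lanosterol were mostly called higher in the CBP arm at 0h and 60h, at 60h less so after median-of-ratios scaling. This division of the branch at lanosterol was chosen after the values were seen and was given no test. Of these 10 genes, 7 were higher and none lower at 0h, and 8 were higher and 1 lower at 60h, beside 44.2% and 18.1% of all genes at 0h and 44.7% and 27.0% at 60h. After median-of-ratios scaling, 5 of the 10 were higher and 1 lower at 60h (33.0% and 36.1% of all genes). ACAT2, the thiolase that joins acetyl-CoA units, was at 14.2, 13.9 and 13.99 FPKM in control cells and 20.98, 22.3 and 22.4 in the CBP arm at 0h, and at 24.1, 24.6 and 25.4 and 36.97, 37.4 and 34.6 at 60h. It rose 1.56-fold (log2 change 0.61 with SE 0.037, adjusted p = 5.39e-08) and 1.47-fold (log2 change 0.54 with SE 0.037, adjusted p = 6.75e-08). The ACAT2 gene overlaps TCP1, a chaperonin subunit gene whose log2 change was 0.14 at 0h and -0.08 at 60h, and the part of shared reads was not tested. HMGCS1, which makes HMG-CoA, rose 1.32-fold, from 26.8 ± 1.501 to 35.5 ± 1.89 FPKM, and 1.34-fold, from 72.8 ± 0.956 to 97.9 ± 4.73.

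The 2 kinases of mevalonate were not called higher at either stage. MVK, the first, had 2.67 ± 0.102 FPKM in control cells and 2.99 ± 0.144 in the CBP arm at 0h (limma adjusted p = 0.0991), and 3.76 ± 0.325 and 3.88 ± 0.169 at 60h (adjusted p = 0.576). PMVK, the second, had 2.10 ± 0.214 and 1.88 ± 0.109 FPKM at 0h (adjusted p = 0.258) and fell 1.36-fold at 60h, to 1.52 ± 0.135 FPKM (log2 change -0.28). Its gene body overlaps KCNN3, a potassium channel gene with log2 changes of -1.08 at 0h and -0.29 at 60h, and whether strand was used in counting is not stated. MVD, the decarboxylase that follows, was at 9.33, 8.76 and 8.68 against 13.1, 11.5 and 14.3 FPKM at 0h and 13.4, 13.6 and 13.8 against 21.1, 20.4 and 20.4 at 60h. The MVD arms did not overlap at either stage, and the gene rose 1.46-fold (log2 change 0.49, SE 0.059) and 1.52-fold (0.56, SE 0.059).

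IDI1, the isomerase of the isoprenoid units, rose 1.18-fold at 0h. At 60h it was 1.08-fold higher (log2 change 0.12), a call that was lost with a turned sign after median-of-ratios scaling (-0.02). FDPS, the farnesyl diphosphate synthase, was among the lowest of the 32 genes, at 1.03, 0.658 and 0.862 FPKM in control cells and 1.03, 1.07 and 1.04 in the CBP arm at 0h, where it did not pass (adjusted p = 0.145). At 60h its libraries read 2.65, 2.14 and 2.19 and 2.68, 2.85 and 3.22 FPKM, a 1.25-fold rise (adjusted p = 0.0273) that did not pass without control replicate 2 or 3 or CBP arm replicate 3 at 60h (adjusted p = 0.0963, 0.0872 and 0.112), nor after median-of-ratios scaling (0.165), with a pseudocount of 0.1 (0.0656) or with no filter (0.0569). FDFT1, the squalene synthase, rose 1.27-fold at 0h and 1.13-fold at 60h, the latter lost after median-of-ratios scaling (log2 change 0.05). SQLE, the squalene epoxidase, was at 31.1, 27.9 and 27.6 against 36.3, 41.2 and 40.5 FPKM at 0h and 59.05, 59.5 and 58.8 against 88.5, 85.2 and 81.9 at 60h, a rise of 1.36-fold and 1.44-fold with no overlap. LSS, which closes the ring to lanosterol, rose 1.18-fold and 1.33-fold.

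The 8 enzymes of the steps after lanosterol went both ways. At 0h 6 were higher and 1 was lower (4 and 2 after median-of-ratios scaling), and at 60h 2 were higher and 3 lower (0 and 4). The shares of all genes were 44.2% and 18.1% at 0h (25.7% and 26.6% after that scaling). At 60h they were 44.7% and 27.0% (33.0% and 36.1%). CYP51A1, the lanosterol demethylase, was at 45.6, 46.1 and 45 FPKM in control cells and 50.6, 52.5 and 47.8 in the CBP arm at 0h, and at 84.05, 86.8 and 87.5 and 77.2, 79.1 and 72.5 at 60h. It was 1.1-fold higher at 0h (lost after median-of-ratios scaling, log2 change 0.01) and fell 1.13-fold at 60h (log2 change -0.17 with SE 0.039, adjusted p = 0.00153). TM7SF2, a sterol C14 reductase, was lower in the CBP arm at both stages: 6.32, 6.17 and 6.45 against 4.27, 3.44 and 4.06 FPKM at 0h and 16.2, 16.9 and 17.8 against 10.9, 9.86 and 12.1 at 60h. It fell 1.61-fold (log2 change -0.57 with SE 0.074, adjusted p = 3.43e-05) and 1.55-fold (log2 change -0.59 with SE 0.074, adjusted p = 1.66e-05), and no library of the CBP arm reached the control level of its stage. LBR, which catalyses the same reduction and also binds the nuclear lamina, rose 1.51-fold at 0h, from 7.11 ± 0.515 to 10.8 ± 0.526 FPKM, and did not pass at 60h (log2 change -0.07).

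MSMO1, the C4 methyl oxidase, was at 26.6, 23.8 and 23.5 against 29.7, 28.9 and 29.8 FPKM at 0h, a 1.2-fold rise, and at 55.4, 60.8 and 58.5 against 60.4, 58.1 and 59.1 at 60h, where the arms overlapped (adjusted p = 0.646) and median-of-ratios scaling gave a lower value (-0.11, adjusted p = 0.0372). NSDHL, the next enzyme, had 5.65 ± 0.169 and 5.21 ± 0.167 FPKM at 0h (log2 change -0.10, adjusted p = 0.0619, but -0.21 and adjusted p = 0.00156 after that scaling) and fell 1.28-fold at 60h, from 7.76 ± 0.322 to 6.08 ± 0.184. HSD17B7, the ketoreductase of the same complex, was at 4.98, 4.38 and 4.73 against 5.55, 7.09 and 6.54 FPKM at 0h, a 1.36-fold rise, and at 11.14, 10.7 and 12.01 against 12.4, 12.2 and 11.7 at 60h, where the arms overlapped (adjusted p = 0.252). EBP, a sterol isomerase, rose 1.26-fold at 0h and 1.11-fold at 60h, the latter lost without control replicate 1 (adjusted p = 0.0777) or CBP arm replicate 1 (0.0608) and after median-of-ratios scaling (0.719). SC5D, a sterol desaturase, rose 1.17-fold at 0h with overlapping arms (adjusted p = 0.034), a call lost without control replicate 3 (0.148) or CBP arm replicate 2 (0.146), after median-of-ratios scaling (0.394), with no filter (0.074), after TPM scaling (0.0794) and with only the groups compared (0.0675). SC5D did not pass at 60h (adjusted p = 0.563). DHCR7, which makes cholesterol from its last precursor, was at 9.12, 8.24 and 8.81 against 12.7, 12.3 and 11.6 FPKM at 0h and 19.6, 21.1 and 19.4 against 21.6, 24.4 and 23.2 at 60h. Its rise was 1.4-fold at 0h and 1.15-fold at 60h, the latter lost after median-of-ratios scaling (log2 change 0.07).

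Of the SREBP regulators, the 2 factor genes moved differently with stage. SREBF2 was at 26.8, 28.1 and 28.2 FPKM in control cells and 32.3, 31.8 and 32.5 in the CBP arm at 0h, and at 43.1, 42.5 and 42.8 and 54.8, 56.2 and 59.2 at 60h. It was 1.16-fold higher at 0h (log2 change 0.21, lost after median-of-ratios scaling at 0.08) and rose 1.33-fold at 60h (log2 change 0.40 with SE 0.032, adjusted p = 2.95e-07). SREBF1 was at 14.2, 13.5 and 14.7 against 18.6, 17.5 and 19.6 FPKM at 0h, a 1.32-fold rise (log2 change 0.38 with SE 0.069, adjusted p = 0.000544). At 60h it was at 10.4, 10.1 and 8.29 against 10.99, 10.5 and 10.9 FPKM. The 60h libraries of SREBF1 lay below all 0h libraries, the arms differed by a log2 change of 0.16 that did not pass (adjusted p = 0.0504). It passed in 7 of 20 alternatives, and after median-of-ratios scaling it was 0.04 (adjusted p = 0.593). The table does not separate the transcripts of SREBF1.

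SCAP, the escort of the SREBP precursors, was at 12.3, 11.8 and 11.7 FPKM in control cells and 16.3, 17.6 and 16.8 in the CBP arm at 0h, and at 12.5, 12.5 and 11.9 and 21.2, 19.9 and 21.2 at 60h. Control libraries of both stages lay together and all CBP arm libraries lay above them, with a 1.42-fold rise at 0h (log2 change 0.47 with SE 0.039, adjusted p = 7.73e-07) and a 1.69-fold rise at 60h (log2 change 0.71 with SE 0.039, adjusted p = 9.04e-09). INSIG1, which retains SCAP and is itself a known SREBP target, was at 12.1, 9.36 and 9.71 against 12.7, 15.04 and 13.3 FPKM at 0h and 17.8, 18.5 and 18.3 against 29.8, 28.3 and 26.6 at 60h. It rose 1.32-fold at 0h, where the highest control and the lowest CBP arm library were close, and 1.55-fold at 60h (log2 change 0.61 with SE 0.082, adjusted p = 3.07e-05). STARD4, which carries sterol between membranes, was at 4.70, 3.96 and 4.03 against 6.24, 6.70 and 6.22 FPKM at 0h and 7.38, 8.33 and 8.55 against 9.52, 10.1 and 10.1 at 60h. Its rise was 1.51-fold at 0h and 1.22-fold at 60h, but median-of-ratios scaling ended the 60h call (adjusted p = 0.0597).

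Whether the difference between the arms itself changed with stage was tested as the interaction, the log2 change at 60h minus that at 0h. It passed for 8 genes upward and 8 downward of 32, where 24.3% of all genes passed upward and 26.7% downward, and none of the 32 reached 0.5 in size, which 9.33% of all genes did upward and 10.0% downward. Both shares of the 32 genes, 8 in each direction, are near that background. In the fatty acid branch 5 genes gained and 1 lost, in the sterol branch 1 gained and 6 lost, and in the regulators 2 gained and 1 lost. Within the sterol branch, 5 of the 8 genes after lanosterol lost and none gained, against 1 lost and 1 gained of the 10 up to it. FASN gained most (log2 change 0.43 with SE 0.043, adjusted p = 5.36e-06), followed by ELOVL6 (0.29, adjusted p = 0.0139) and SCAP (0.24, adjusted p = 0.00291). CYP51A1 lost most (log2 change -0.31 with SE 0.055, adjusted p = 0.000503), followed by SCD (-0.28, adjusted p = 0.000363) and HSD17B7 (-0.28, adjusted p = 0.0399), the last in only 7 of 19 alternatives. The rise of SCD in the CBP arm was smaller at 60h than at 0h, while the rises of FASN, FADS1 and FADS2 were larger, that of FADS2 in 11 of 19 alternatives.

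From 0h to 60h, transcripts of both branches rose in control cells and in the CBP arm. These comparisons share their libraries with those of the arms and are not independent of them. In control cells 29 of the 32 genes rose and 1 fell, where 28.8% of all genes were called higher and 38.0% lower, and in the CBP arm 30 rose and 2 fell (31.3% and 41.5% of all genes). In control cells the median log2 change was 0.88 for the sterol branch, 0.40 for the fatty acid branch and 0.61 for the regulators, against -0.05 over all tested genes. In the CBP arm it was 0.79, 0.69 and 0.56, against -0.06. A log2 change of at least 0.5 upward was met by 15 of 18 sterol genes and 4 of 9 fatty acid genes in control cells (10.4% of all genes) and by 14 and 5 in the CBP arm (13.2%).

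In control cells the largest rises of the 32 genes on the log2(FPKM + 1) scale were those of SCD (3.17-fold, log2 change 1.62 with SE 0.033, adjusted p = 3.58e-12), HMGCS1 (2.72-fold), TM7SF2 (2.69-fold) and MSMO1 (2.37-fold). In the CBP arm they were those of HMGCS1 (2.76-fold), SCD (2.58-fold), TM7SF2 (2.8-fold) and FASN (2.41-fold, log2 change 1.25 with SE 0.031, adjusted p = 5.76e-12). FDPS, at low levels, rose 2.74-fold in control cells and 2.78-fold in the CBP arm. Unlike both branches, SREBF1 fell 1.47-fold in control cells (log2 change -0.52 with SE 0.069, adjusted p = 3.36e-05) and 1.72-fold in the CBP arm (log2 change -0.73 with SE 0.069, adjusted p = 1.22e-06). SREBF2 rose 1.54-fold and 1.76-fold, and the ratio of SREBF2 to SREBF1 FPKM was 1.89 to 2.09 at 0h and 4.16 to 5.16 at 60h in control libraries. In the CBP arm it was 1.65 to 1.82 at 0h and 4.98 to 5.43 at 60h. SCAP did not pass in control cells (log2 change 0.04, adjusted p = 0.398, but 0.10 and adjusted p = 0.0288 after median-of-ratios scaling). PMVK did not pass in control cells (adjusted p = 0.86) and was 1.24-fold lower at 60h in the CBP arm (adjusted p = 0.0372), a call lost without any 1 of the 3 CBP arm libraries at 0h or without replicate 1 or 2 at 60h (adjusted p = 0.0509 to 0.132) and after median-of-ratios scaling (0.1), after TPM scaling (0.169) and with no filter (0.075).

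**Figure D4:**
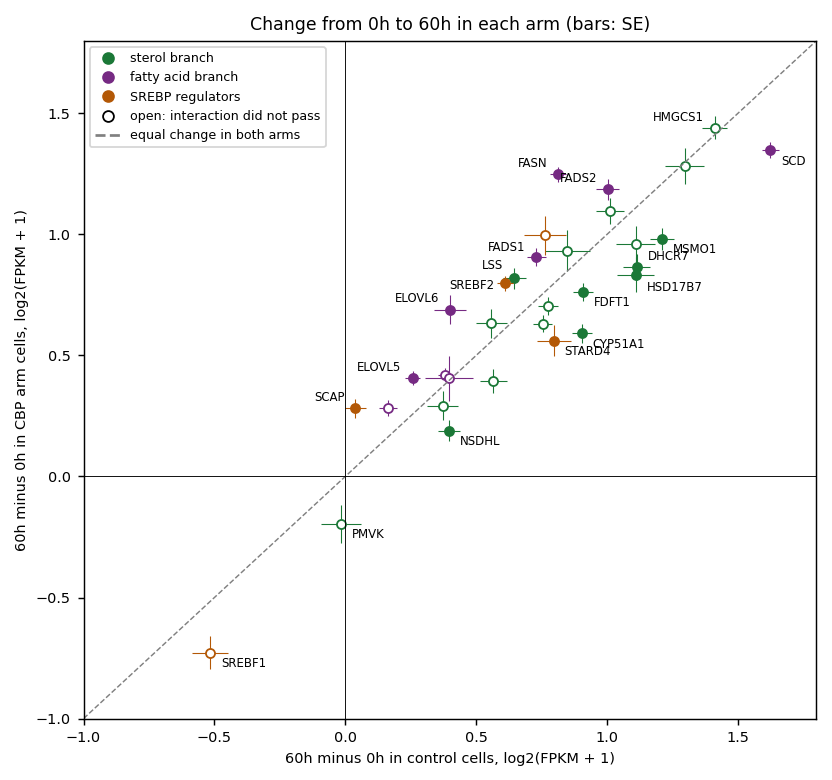
Difference in log2(FPKM + 1) between 60h and 0h in control cells (horizontal axis) and in the CBP arm (vertical axis) for each of the 32 genes, with SE bars. Filled points passed the interaction test and the dashed line marks an equal change. SREBF1 lies at -0.52 and -0.73, FASN lies above the line (0.81 and 1.25) and SCD below it (1.62 and 1.35).

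Other genes of the 2 pathways, from lists that hold none of the 32, are given by their counts, beside 44.2% higher and 18.1% lower of all genes at 0h and 44.7% and 27.0% at 60h. With median-of-ratios scaling, the shares of all genes were 25.7% and 26.6% at 0h, and 33.0% and 36.1% at 60h. Of 24 genes of sterol uptake, SREBP processing and enzyme turnover, 17 were tested, and 12 were higher and 1 lower in the CBP arm at 0h (8 and 3 after median-of-ratios scaling), and 12 and 1 at 60h (8 and 3). Their median log2 changes were 0.28 and 0.22. MBTPS1, the protease that makes the first cut in SREBP precursors, rose 1.37-fold at 0h, from 30.03 ± 0.591 to 41.1 ± 1.82 FPKM, and 1.53-fold at 60h, from 31.1 ± 1.13 to 47.5 ± 0.334. RNF145, a sterol-responsive ubiquitin ligase, rose 1.55-fold and 1.75-fold. Of 31 genes of fatty acid supply, elongation and activation, 23 were tested, with 14 higher and 3 lower at 0h (median 0.23) and 11 higher and 10 lower at 60h (median 0.01). After median-of-ratios scaling these counts were 10 and 6 at 0h and 11 and 11 at 60h. Before that scaling, the share of higher calls at 60h is near the 44.7% of all genes. After it, the 11 higher and 11 lower of 23 stand beside 33.0% and 36.1%. ACSS3, an acyl-CoA synthetase of short chains, had the largest log2 change of the list at both stages and rose 2.41-fold at 0h, from 1.71 ± 0.213 to 4.11 ± 0.293 FPKM, and 4.56-fold at 60h, from 0.727 ± 0.0274 to 3.32 ± 0.0914. ACSL4, which activates arachidonate, rose 1.76-fold at 0h and 1.57-fold at 60h, and SLC25A1, which exports citrate from mitochondria, rose 1.41-fold and 1.41-fold. FADS3, the third gene of the desaturase family, fell 1.2-fold at 0h and 2.39-fold at 60h, from 48.4 ± 3.75 to 20.3 ± 0.512 FPKM. The acyl-CoA synthetase ACSL5 was 1.11-fold higher at 0h (lost after median-of-ratios scaling, log2 change 0.02) and fell 2.26-fold at 60h.

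Markers of cell types moved beside these genes, and their part in the results was not tested. In bulk RNA, fewer cells of a type and less RNA per cell cannot be told apart. The counts stand beside 44.2% higher and 18.1% lower of all genes at 0h, and 44.7% and 27.0% at 60h. After median-of-ratios scaling these shares were 25.7% and 26.6% at 0h, and 33.0% and 36.1% at 60h. The 10 muscle lineage markers, all tested, had 0 higher and 10 lower at 0h and 4 higher and 5 lower at 60h (0 and 10, and 3 and 5, after median-of-ratios scaling) in the CBP arm, and summed to 2060 to 2070 FPKM in control and 731 to 777 in CBP arm libraries at 0h and to 2661 to 2830 and 1803 to 1976 at 60h. The 10 fibroblast and fibro-adipogenic markers, all tested, had 1 higher and 8 lower at 0h and 3 higher and 5 lower at 60h (1 and 9, and 1 and 6, after median-of-ratios scaling) and summed to 2978 to 3103 FPKM in control and 1707 to 1734 in CBP arm libraries at 0h and to 6386 to 6694 and 4818 to 5172 at 60h. The 8 smooth muscle and pericyte markers, all tested, had 0 higher and 8 lower at 0h and 1 higher and 6 lower at 60h (0 and 8, and 1 and 7, after median-of-ratios scaling) and summed to 3715 to 3861 FPKM in control and 1463 to 1513 in CBP arm libraries at 0h and to 3871 to 3880 and 2680 to 2876 at 60h. Of 9 adipogenic cell markers 3 passed the filter, with 2 higher and 0 lower at 0h and 1 higher and 1 lower at 60h (2 and 1, and 1 and 1, after median-of-ratios scaling), and the list summed to 8.76 to 9.40 FPKM in control and 10.4 to 11.5 in CBP arm libraries at 0h and to 2.56 to 3.01 and 2.06 to 2.65 at 60h. FABP4 held most of that sum at 0h (5.95 ± 0.220 and 5.50 ± 0.135 FPKM), while ADIPOQ reached at most 0.0390 FPKM in any library and RETN was listed at 0 in all 12. PPARG, a regulator of fat cells, was at 1.51 ± 0.0956 and 3.52 ± 0.328 FPKM at 0h. Of 7 endothelial and 8 immune cell markers 1 each passed the filter. The endothelial list had 0 higher and 0 lower at 0h and 0 higher and 1 lower at 60h (0 and 0, and 0 and 1, after median-of-ratios scaling) and summed to 3.88 to 4.28 FPKM in control and 3.85 to 4.08 in CBP arm libraries at 0h and to 1.91 to 2.30 and 1.27 to 1.33 at 60h. The immune list had 0 higher and 0 lower at 0h and 1 higher and 0 lower at 60h (0 and 0, and 1 and 0, after median-of-ratios scaling) and summed to 3.79 to 4.53 FPKM in control and 4.16 to 5.16 in CBP arm libraries at 0h and to 1.44 to 2.37 and 2.92 to 2.96 at 60h.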

How the data were processed

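The authors deposited 1 table of FPKM values with 31908 genes and 1 column per library, with replicates not pooled. The submitters' processing notes name Trimmomatic (trimming), featureCounts (counting) and the build Sscrofa11.1, without versions. Not given in the sources used here were the aligner, the annotation release and whether counting used strand. Columns named NC were read as the control arm labelled WT. Whole reads were recovered from the steps of the FPKM values (tolerance 0.001, 22521 of 22521 genes above 0), and served for depth and for 1 alternative. Replicates differed by more than counting noise in every pair, so none was counted as a repeat deposit.

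The filter kept 11636 genes that reached 1 FPKM in 3 or more libraries. The log2(FPKM + 1) values of all 12 libraries were fitted as 4 group means with limma 3.58.1 in R 4.3.3, with trended empirical Bayes moderation, and p-values (two-sided) were adjusted by Benjamini-Hochberg over all genes kept. The scripts were checked on simulated data. Log2 changes on this scale understate changes of low genes. Fold values are ratios of mean FPKM, and means are given ± SD over n = 3 libraries. Alternatives were a pseudocount of 0.1, other filters (none, or 5 FPKM), TPM and median-of-ratios scaling, a replicate block, leaving out each library, fits of only the groups compared, and limma-voom on recovered reads.

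The 32 genes, the lists and the tests were chosen with earlier results of these data known. Values per library are given for the 4 largest changes of each branch in each comparison of the arms and in the interaction, and for all regulators, and up to 4 called genes of each other list are named. Those of FDPS are also given, outside this rule. TCP1 and KCNN3 were named because they overlap a member, after their values were seen. Positions come from the RefSeq table of Sscrofa11.1, matched by symbol for 29 of the 32 genes. Not every gene of the lists is reported here.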

Additional observations from a re-analysis of the deposited data

Results flagged for a closer look

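The difference between the arms was not the same at 60h as at 0h for 16 of the 32 genes, by the interaction test in limma (3 libraries in each of 4 groups). Of all genes tested, 24.3% passed upward and 26.7% downward, so the 8 and 8 of the 32 are near the background and are no result about the 32 as a set. Values are the log2 change at 60h minus that at 0h. Of the 16, 11 passed in all 19 alternatives run for this test. Among these, the change in the CBP arm was larger at 60h for FASN (0.434), FADS1 (0.177), ELOVL5 (0.15), ELOVL6 (0.288), SREBF2 (0.188) and SCAP (0.242). It was smaller or lower at 60h for CYP51A1 (-0.313), MSMO1 (-0.229), NSDHL (-0.209), DHCR7 (-0.247) and SCD (-0.276). For CYP51A1 the change turned from higher at 0h to lower at 60h, although the rise at 0h was lost after median-of-ratios scaling. The other 5 passed in only some of the 19 alternatives: FDFT1 (-0.146) in 8, LSS (0.172) in 10, HSD17B7 (-0.276) in 7, FADS2 (0.183) in 11 and STARD4 (-0.236) in 6. Their adjusted p over the alternatives reached 0.0984 for FDFT1, 0.074 for LSS, 0.0935 for HSD17B7, 0.0695 for FADS2 and 0.107 for STARD4. Every one of the 12 libraries, left out in turn, ended the call of at least 1 of these 5 genes.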

How the results depend on the processing

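Of the 160 changes (32 genes in 5 comparisons), all 59 stage rises and all 9 fatty acid rises at 60h passed in every alternative that tested the gene. Calls of the arms were kept in every alternative for 23 of 27 higher genes at 0h and 17 of 23 at 60h, and for all lower genes. Under median-of-ratios scaling, at 60h IDI1 went to -0.016 and MSMO1 to -0.106, the lower genes at 0h went from 1 to 2 (also after TPM scaling, 2), and the higher genes over the whole table at 0h went from 5148 to 2987. Genes lower at 60h than at 0h in the CBP arm went from 2 to 1 with no filter, with a 5 FPKM filter, which leaves out PMVK, with TPM and with median-of-ratios scaling (without one library, 1 to 2). Genes that lost in the interaction went from 8 to 5 with no filter and with TPM scaling (without one library, 5 to 8). The cause was not tested. Replicate numbers did not pair the libraries: none of 18 same-numbered pairs had deviations correlated over 0.1, and 2 of 12 libraries correlated best with their own number. With the replicate block, 156 of the 160 changes stayed on their side of the threshold, FDFT1, HSD17B7 and STARD4 lost their calls in the interaction (adjusted p = 0.0648, 0.0608 and 0.071), IDI1 gained one (0.0255), and the higher and lower genes numbered 27 and 1 in the CBP arm at 0h, 23 and 4 at 60h, 29 and 1 from 0h to 60h in control cells, 30 and 2 in the CBP arm and 8 and 6 in the interaction. On recovered reads, limma-voom left 157 of the 160 changes on their side of the threshold and called 3 more (SREBF1 at 60h, and ACACA and INSIG1 in the interaction). Depth limits FDPS and TM7SF2, whose lowest libraries held 75 and 98 reads.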

Other observations

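Counts of lipid genes outside synthesis are read against all genes tested, of which 44.2% were higher and 18.1% lower in the CBP arm at 0h and 44.7% and 27.0% at 60h (25.7% and 26.6%, and 33.0% and 36.1%, after median-of-ratios scaling). Nothing is called particular to these lists from them. Of 23 genes of fatty acid uptake and oxidation 21 were tested: 8 were higher and 4 lower in the CBP arm at 0h (median log2 change 0.04) and 7 higher and 8 lower at 60h (median -0.04), or 6 and 8, and 4 and 13, after median-of-ratios scaling. PPARD, a lipid-sensing nuclear receptor, rose 1.73-fold at 0h, and CPT1B, the muscle form of the transferase that admits fatty acids to mitochondria, fell 1.62-fold, from 16.2 ± 0.220 to 9.96 ± 1.05 FPKM. At 60h CPT1A, the widespread form, fell 1.49-fold and the electron transfer enzyme ETFDH fell 1.81-fold. From 0h to 60h this list held 5 higher and 12 lower genes of 21 in control cells and 2 and 14 in the CBP arm. Of all genes, 28.8% were higher and 38.0% lower in control cells, and 31.3% and 41.5% in the CBP arm.

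Of 19 genes of glycerolipid synthesis and storage 17 were tested: 12 were higher and 2 lower in the CBP arm at 0h (median log2 change 0.30) and 9 higher and 6 lower at 60h (median 0.16), or 10 and 2, and 7 and 7, after median-of-ratios scaling. PLIN2, which coats lipid droplets, rose 1.65-fold at 0h, from 39.2 ± 1.05 to 64.5 ± 2.25 FPKM, and AGPAT2, which makes phosphatidic acid, fell 1.78-fold at 0h and 2.18-fold at 60h. A list of 12 genes held the oxysterol receptors (LXR) and sterol export genes, with sterol hydroxylases and other genes beside them. Its counts are therefore not those of receptors and exporters alone. Of the 12 genes 7 were tested: 2 were higher and 2 lower in the CBP arm at 0h (median log2 change 0.04). At 60h 3 were higher and 3 lower (median 0.14). After median-of-ratios scaling these counts were 2 and 2, and 2 and 3.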
